A study of Mus musculus with 24 samples.

Results

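The libraries compared were 3 of Ocy454 cells treated for 8 h with a single agent and 3 of the same cells given vehicle for 8 h, 6 of the 24 libraries of the series. Ocy454 is a mouse cell line of osteocytic character, and the labels name no other genotype or additional treatment for either group. The members were chosen by the names of their deposited tables, which give the 3 treated libraries the single-treatment letter D. Their sample titles give them the letter L, and their library names read LPA, for lysophosphatidic acid. In the titles the letter D stands for 1,25-dihydroxyvitamin D (1,25D), the active vitamin D hormone. The title and the file code thus name opposite agents for the same libraries, which are called "labelled LPA (file code D)" here, or "labelled LPA" for short. The other groups of the series were the libraries labelled 1,25D (file code L), libraries given both agents, and the same 4 treatments at 2 h, 3 libraries each. The labels carry no doses. The labels do not tie replicates to separate cultures. The p-values thus speak for the spread among libraries, which may be technical. That spread and the SE below come from a fit of all 24 libraries, not from the 6 compared alone.

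The active hormone binds the vitamin D receptor (VDR), which pairs with a retinoid X receptor and binds DNA at direct repeats of a hexamer with a short spacer. In cells of the osteoblast and osteocyte lineage this receptor is known for induction of its own catabolic enzyme, of RANKL, of osteopontin and of the phosphate hormone FGF23. LPA acts through G protein-coupled receptors that activate MAP kinase and other signalling. A test of which agent the libraries received therefore rests on direct targets of the receptor, and Cyp24a1 and Vdr are given first.

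Cyp24a1 encodes the mitochondrial enzyme that inactivates 1,25D. Over 3 libraries a group, 102 Cyp24a1 counts were summed with labelled LPA against 1 with vehicle, a ratio of 100 with a 95% exact interval of 17.6 to 3995 that covers counting error only. Its levels were 0.73, 1.36 and 0.85 CPM, counts scaled to library size per M, in the labelled LPA libraries, and 0.030, 0 and 0 CPM in vehicle. The 3 counts taken as the limit of detection correspond to 0.084 to 0.093 CPM in a library, so every labelled LPA library lay above that limit and every vehicle library below it. The libraries labelled 1,25D together held 1 Cyp24a1 count, and those given both agents held 87. Vdr itself was at 247, 260 and 256 CPM with labelled LPA and at 134, 112 and 130 CPM with vehicle. The groups did not overlap, and the log2 fold change was 1.02 ± 0.08 (SE, n = 3 a group here and throughout, adjusted p = 3.9e-09). In the libraries labelled 1,25D, Vdr was at 70.6, 74.3 and 71.9 CPM, below every vehicle library. Vdr with labelled LPA at 8 h lay near the 2 h levels given below, while vehicle at 8 h lay under them. Both genes therefore moved with the letter in the file code, D, and against the agent named in the titles. Judged by Cyp24a1 and Vdr, the agent given to these libraries was 1,25D, as the file code reads, and not the LPA of the label. The name labelled LPA is kept below as a label only, and changes under it are not to be credited to LPA. The statements that follow give the direction for the libraries as they are labelled.

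The 6 libraries held 33.43 to 33.75 M counts, of which 99.48 to 99.6% were matched to genes, and 16424 genes were tested. A total of 1971 genes, or 12% of those tested, passed an adjusted p of 0.05 (edgeR quasi-likelihood F test, Benjamini-Hochberg), 1088 higher with labelled LPA (6.62%) and 883 lower (5.38%). At least 2-fold changes were mostly rises, with 365 genes higher and 63 lower. In 4645 genes (28.3%) the 3 libraries of each group did not overlap. The count leaned on single libraries: it was 1067 without vehicle replicate 2, 3302 without vehicle replicate 3 and 1051 without labelled LPA replicate 2. The balance turned without labelled LPA replicate 1, with 1222 genes higher and 1541 lower. A set of 902 genes was called with all libraries and in each of the 6 fits that left out 1 of them, 568 higher (3.46%) and 334 lower (2.03%). Those genes are called retained below. Counts on gene lists below are to be read against these shares over all genes, 6.62% higher and 5.38% lower, and 3.46% and 2.03% retained. A fit of only the 2 groups, with fewer degrees of freedom and its own estimate of the spread, called 565 genes, 406 higher and 159 lower. The cause of the smaller count was not tested. Of the genes named here as called, 29 were not called in that fit (adjusted p 0.058 to 0.25): Acvr1, Agpat1, Ank, Ankrd37, Ccl7, Cdkn1a, Cdkn1b, Cebpb, Csf1, Cxcl12, Enpp2, Fzd8, Hdac9, Hey2, Il12a, Irs2, Krtap1-5, Lrp5, Mthfd2, Nr1d1, P2rx6, P2ry10b, Per2, Spry1, Timp3, Tnfrsf11b, Ttll11, Wif1 and Wnt5a.

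Vehicle replicate 2 stood apart from its group. On the leading axis of the differences between replicates, which held 13.7% of that variation, it scored 43.61 and the other vehicle libraries −15.19 and −28.42. Mitochondrially encoded genes took 16.92% of its counts, the highest share of the 6 libraries, against 10.15 to 14.04% in the others. The axis, and each gene's correlation with it, were taken over all 24 libraries. Across genes, the log2 fold changes for labelled LPA had a rank correlation of −0.55 with each gene's correlation with that axis. This value is a description, since the fold changes of all genes share the same 6 libraries. The median correlation with the axis was −0.49 for retained rises, −0.79 for rises that were not retained and 0.07 for all genes. It was 0.53 for retained falls and 0.62 for falls that were not retained. The part of this axis in each result was not tested. For genes tied to it, the correlation is given below as r with the replicate axis. The same agent added to the other agent, that is both agents against labelled 1,25D, was measured on 6 other libraries and is given beside the main values as a second measurement. That measurement is tied to the same axis with the opposite sign: replicate 2 of the libraries given both agents scored 38.66, and the rank correlation across genes was 0.46. A low value there for a gene with a strong r is therefore not free of the axis. Over all genes the second measurement called 5.74% higher and 3.43% lower, the shares beside which its list counts stand.

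Of 20 tested genes on a list of VDR targets, 11 were higher and 1 lower, against 6.62% and 5.38% of all genes tested. The median log2 fold change of the list was 1.05 against 0.00 for all genes. The 11 include Cyp24a1 and Vdr, which were used above to judge the agent, so the count is not separate from that judgement. All but Cebpb of the 11 were retained. The list was chosen with earlier results of these data known, so its count is a description. Rises on it were not particular to labelled LPA. Against the same vehicle libraries, labelled 1,25D had 8 members higher and 1 lower, with a median of 0.43. Over all 16424 genes, that comparison had 1296 higher and 1366 lower. Summed over the list, TPM (the deposited measure scaled for transcript length and depth) ran from 380 to 488 in vehicle and from 1893 to 2039 with labelled LPA, 2 ranges that do not overlap.

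Osteopontin, the acidic matrix phosphoprotein encoded by Spp1, was at 256, 295 and 265 CPM with vehicle and at 1822, 1447 and 1623 CPM with labelled LPA. Its log2 fold change was 2.58 ± 0.10 (adjusted p = 4.1e-14). Enpp3, which encodes an ectonucleotide pyrophosphatase, went from 6.33, 7.32 and 5.48 CPM to 114, 105 and 107 CPM. It had the smallest p of the list, with a log2 fold change of 4.09 ± 0.12 (adjusted p = 3.3e-16). Its relative Enpp1, the main source of extracellular pyrophosphate in bone, had a log2 fold change of 2.79 ± 0.17 (adjusted p = 8.7e-11). Cbs, which encodes cystathionine beta-synthase, had 0.50, 0.59 and 0.53 CPM in vehicle and 20.4, 19.2 and 20.0 CPM with labelled LPA (5.19 ± 0.18, adjusted p = 5.1e-15). In all 4 of these genes the lowest treated library was several times the highest vehicle library.

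Thbd, for the anticoagulant surface receptor thrombomodulin, was at 30.7, 32.9 and 29.9 CPM in vehicle and at 67.6, 67.2 and 63.5 CPM with labelled LPA. The log2 fold change was 1.09 ± 0.08 (adjusted p = 2.4e-09). In the second measurement, both agents against labelled 1,25D, Thbd rose by 1.04 and Enpp3 by 3.86 (adjusted p = 4.4e-09 and 6.9e-16). Lrp5 encodes a Wnt co-receptor. It was at 47.4, 22.9 and 58.5 CPM in vehicle, with replicate 2 lowest, and at 89.4, 119 and 94.3 CPM with labelled LPA. Its log2 fold change of 1.23 ± 0.23 (adjusted p = 0.00092) was set beside an r of −0.95 with the replicate axis and a value of 0.33 in the second measurement (adjusted p = 0.39). Cebpb, a transcription factor gene, was called at 1.32 ± 0.30 (adjusted p = 0.0049) but not without labelled LPA replicate 2 (adjusted p = 0.056). The member that fell was Cdkn1a, which encodes the cell cycle inhibitor p21, at −0.44 ± 0.10 (adjusted p = 0.0064). Of the receptor's partners, coregulators and metabolic enzymes, 4 of 15 were higher and 0 lower, and 2 of the rises were retained. Cyp24a1 and Vdr, which the target list also holds, were among the 4. This list had a median correlation of −0.63 with the replicate axis. In the second measurement 2 of its genes were higher and 0 lower, with a median of −0.17. Rxra was at 50.7, 25.4 and 59.2 CPM in vehicle, with replicate 2 lowest, and at 57.6, 77.1 and 64.0 CPM with labelled LPA (0.55 ± 0.22, adjusted p = 0.096).

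**Figure D1:**
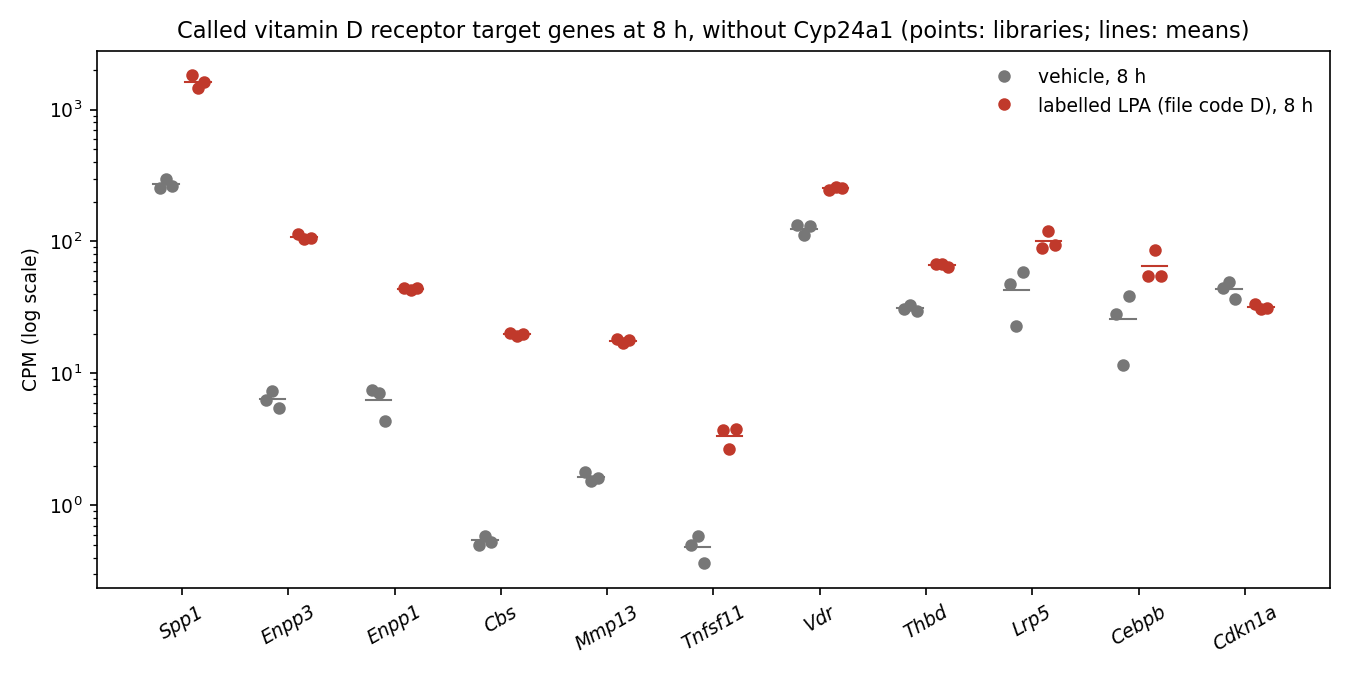
Each point is 1 library at 8 h, with vehicle in grey and labelled LPA (file code D) in red, lines at group means, and CPM on a log axis. Cdkn1a, which fell, is shown with 10 of the 11 genes that rose, without Cyp24a1, which a log axis cannot hold at 0, and the vehicle points of Lrp5 and Cebpb spread wider than those of Enpp3 or Thbd.

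Promoter windows of 300 bases, from 250 before to 50 after the annotated start (RefSeq, build GRCm38.p6, older than the mm39 build of the files), were searched for the direct repeat that the receptor binds. With any pair of the hexamer AGGTCA, its variant AGTTCA, the hexamer GGGTCA and its variant GGTTCA, in 1 direction, 3 bases apart and on either strand, 13 of 32851 windows (0.0396%) held a repeat. None of 816 windows of genes that were higher held one, and 272 such genes, Cyp24a1 among them, were not matched to a window. A wider set was chosen after the first search. It added the hexamer AGGTGA, its variant AGTTGA, the hexamer GGGTGA and its variant GGTTGA, and repeats of it were found in 84 windows (0.256%) and in 2 of the 816 (0.245%), a share near the background. Those 2 genes, Kcne4 and Ephb2, are printed with the repeat in capitals, and Cbs is printed with its lone hexamer in capitals as a strong riser without a repeat. Single hexamers are common, since 66.7% of all windows held at least 1. The Kcne4 window is chr1:78816661-78816960 on the plus strand, the Ephb2 window chr4:136835963-136836262 on the minus strand and the Cbs window chr17:31637156-31637455 on the minus strand. A match describes letters in these windows and does not show a binding site.
Kcne4: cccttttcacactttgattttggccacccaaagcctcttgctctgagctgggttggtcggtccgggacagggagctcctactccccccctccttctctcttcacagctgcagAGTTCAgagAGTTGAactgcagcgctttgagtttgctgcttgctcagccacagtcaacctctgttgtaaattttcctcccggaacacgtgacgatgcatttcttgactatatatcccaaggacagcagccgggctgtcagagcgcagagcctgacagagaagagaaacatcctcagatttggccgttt
Ephb2: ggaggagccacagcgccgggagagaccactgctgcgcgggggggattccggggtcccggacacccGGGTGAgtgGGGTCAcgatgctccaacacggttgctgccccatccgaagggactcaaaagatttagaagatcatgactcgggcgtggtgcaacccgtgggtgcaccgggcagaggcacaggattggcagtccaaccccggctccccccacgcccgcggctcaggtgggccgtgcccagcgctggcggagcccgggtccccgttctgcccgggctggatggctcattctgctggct
Cbs: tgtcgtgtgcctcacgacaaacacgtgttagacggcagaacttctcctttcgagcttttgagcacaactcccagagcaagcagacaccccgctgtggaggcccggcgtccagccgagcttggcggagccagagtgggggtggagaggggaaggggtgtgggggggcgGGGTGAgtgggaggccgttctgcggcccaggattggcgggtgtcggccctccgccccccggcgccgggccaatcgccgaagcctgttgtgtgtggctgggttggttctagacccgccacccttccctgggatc

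Kcne4, which encodes a regulatory subunit of voltage-gated potassium channels, was at 0.98, 1.24 and 0.87 CPM in vehicle and 3.99, 2.55 and 2.57 CPM with labelled LPA. The log2 fold change was 1.56 ± 0.26 (adjusted p = 0.00020), and the second measurement gave 1.95 (adjusted p = 3.8e-05). Ephb2, an ephrin receptor gene, was at 4.05, 2.27 and 5.09 CPM in vehicle and 11.2, 13.9 and 12.4 CPM with labelled LPA. Its rise of 1.71 ± 0.28 (adjusted p = 0.00019) came with an r of −0.90 with the replicate axis and a second measurement of 0.64 (adjusted p = 0.16).

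The 15 largest rises, among genes with at least 1 CPM on average and libraries that did not overlap, were all retained and were all higher in the second measurement. That choice, made on the same libraries, favoured retention. Of the 365 called rises of at least 2-fold, 294 were retained, and 52.6% of the 365 were higher in the second measurement. The 15 named rises were Mrgprd, Elfn1, Bhmt, Inmt, Krt17, Cbs, Enpp3, Klhl33, Tnni1, Mmp13, Gdpd5, Prrt4, Hoga1, Ankrd2 and Fst. Several started from near the limit of detection. Mrgprd, which encodes a G protein-coupled receptor best known from sensory neurons, had 248 summed counts against 2 in vehicle, a ratio of 122 with a 95% exact interval of 33.4 to 1010. Elfn1, for a leucine-rich transmembrane protein that organises synapses, was at 0.24, 0.22 and 0.36 CPM in vehicle and at 25.8, 31.6 and 25.9 CPM with labelled LPA (6.64 ± 0.42, adjusted p = 2.2e-10). Inmt, which encodes a methyltransferase acting on indole amines, went from 0.59, 0.37 and 0.42 CPM to 26.5, 23.8 and 24 CPM (5.73 ± 0.26, adjusted p = 5e-13). Krt17, an intermediate filament keratin gene, rose from 19 summed counts to 850, a ratio of 43.9 (28.0 to 73.3).

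Hoga1 encodes an enzyme of hydroxyproline breakdown. It was at 5.50, 5.90 and 5.48 CPM in vehicle and at 49.4, 48.8 and 49.7 CPM with labelled LPA, with a log2 fold change of 3.13 ± 0.11 (adjusted p = 6e-15). Klhl33, a member of the kelch-like family, was at 6.38, 5.21 and 5.95 CPM in vehicle and at 78.7, 97.2 and 84.6 CPM with labelled LPA (3.89 ± 0.13, adjusted p = 2.7e-15). Neither gene had overlapping groups, which the choice of the named rises required. Mmp13, which encodes collagenase 3, went from 1.80, 1.52 and 1.62 CPM to 18.1, 17.0 and 17.8 CPM (3.42 ± 0.20, adjusted p = 4.4e-11). Gdpd5, for a glycerophosphodiester phosphodiesterase, rose by 3.30 ± 0.27, with an r of −0.94 with the replicate axis and 1.98 in the second measurement (adjusted p = 1e-08 and 1e-05). The remaining named rises were Tnni1 (3.84), Prrt4 (3.23) and Ankrd2 (2.94), whose vehicle levels were below 0.70 CPM in every library.

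Cbs and Bhmt both encode enzymes that use homocysteine, the first towards cysteine and the second back to methionine. Bhmt had 384 summed counts with labelled LPA against 6 in vehicle, a ratio of 62.9 (28.6 to 172). Of 17 tested genes for methionine, homocysteine and one-carbon enzymes, these 2 were higher and Mthfd2 was lower, with a median of 0.04. Mthfd2, the mitochondrial folate enzyme, had a log2 fold change of −0.28 ± 0.09 (adjusted p = 0.042), which held in 2 of the 6 fits without 1 library.

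The 15 largest falls were smaller, from −1.80 to −1.18. Those named here are Lrrc17, Ppp1r3c, Tnfrsf11b, Id1, Gpr39, Gper1, Dlx5, P2ry10b, Hopx, Gadd45g, Il33, P2rx6, Tspan8 and S100b. Of the 15, 13 were retained, while P2ry10b and P2rx6 held in 3 of 6 fits each. Retention was favoured by the choice here too, and of the 63 called falls of at least 2-fold 36 were retained. P2ry10b (−1.45) was lost without vehicle replicate 2, labelled LPA replicate 1 or labelled LPA replicate 3, and P2rx6 (−1.23) without vehicle replicate 1, labelled LPA replicate 2 or labelled LPA replicate 3. In the second measurement 9 of the 15 were lower, against a background of 3.43%. Lrrc17, which encodes a secreted leucine-rich protein, was at 5.73, 6.64 and 4.36 CPM in vehicle and at 1.93, 1.27 and 1.60 CPM with labelled LPA (−1.80 ± 0.26, adjusted p = 3.6e-05). Gpr39, for a zinc-sensing receptor, was at 6.36, 6.11 and 4.19 CPM in vehicle and at 1.64, 2.24 and 1.81 CPM with labelled LPA (−1.55 ± 0.16, adjusted p = 6.3e-07). Dlx5, a homeobox gene of osteoblast differentiation, was at 5.79, 3.57 and 6.09 CPM in vehicle and at 1.52, 2.04 and 2.07 CPM with labelled LPA (−1.45 ± 0.24, adjusted p = 0.00016). Each of these 3 genes had its lowest vehicle library above its highest treated one, which the choice of the named falls required.

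**Figure D2:**
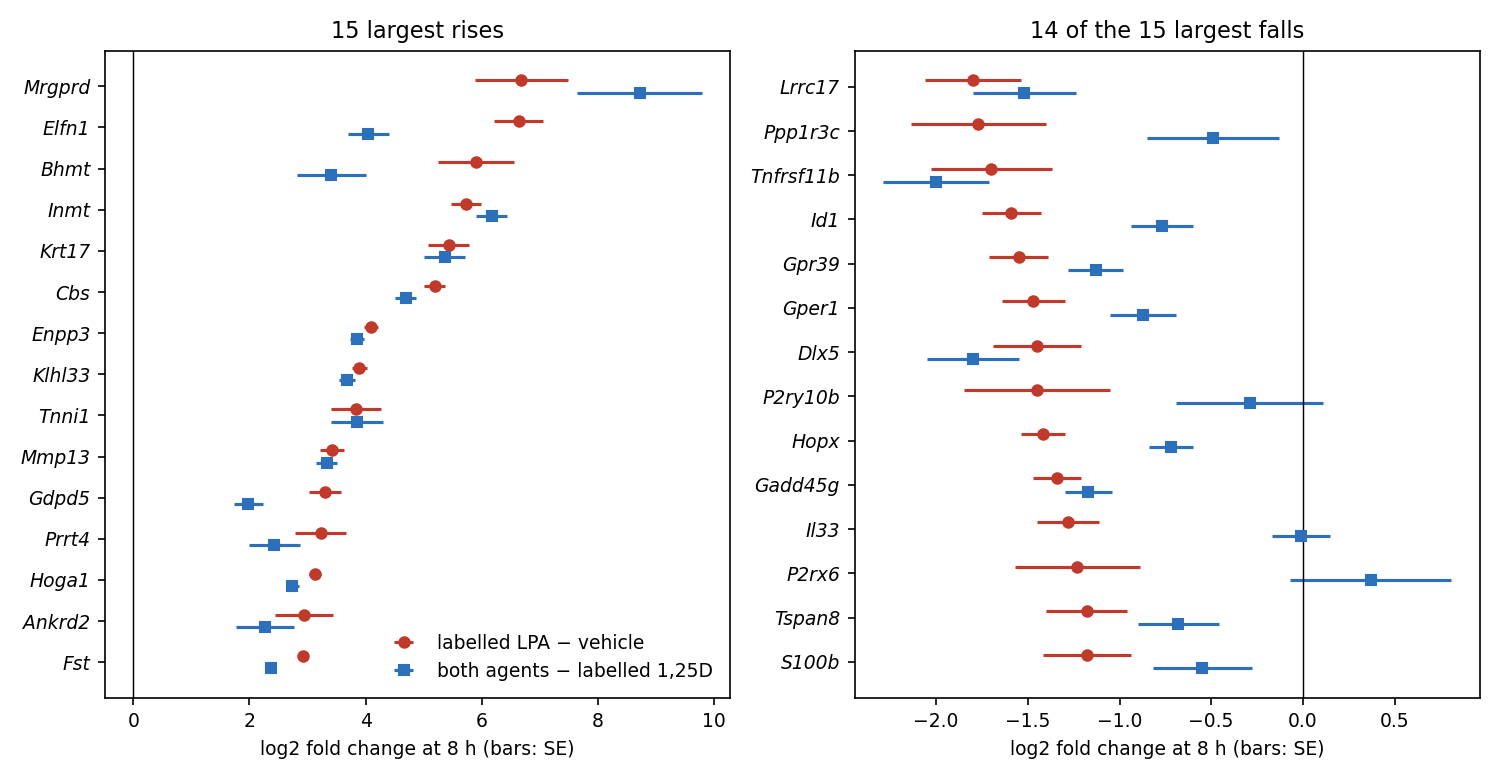
Log2 fold changes at 8 h with SE bars for the 15 largest rises (left) and 14 of the 15 largest falls (right). Red circles are labelled LPA (file code D) minus vehicle, and blue squares are both agents minus labelled 1,25D, on 6 other libraries. All blue squares lie above 0 on the left, while Il33 and P2ry10b are near 0 and P2rx6 is above 0 on the right.

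FGF23 is the bone hormone that lowers blood phosphate, and the title of the series names its synthesis and the Il12a gene. Fgf23 was at the limit of detection, with 4 counts over the labelled LPA libraries and 3 over the vehicle libraries, a ratio of 1.31 (0.222 to 8.94). A difference was not detectable at this depth. Il12a, the gene of the interleukin-12 subunit p35, was at 0.47, 0.28 and 0.70 CPM in vehicle and at 1.08, 0.93 and 1.49 CPM with labelled LPA. The groups did not overlap, and the log2 fold change was 1.26 ± 0.36 (adjusted p = 0.025). The call was lost without vehicle replicate 1, vehicle replicate 2 or labelled LPA replicate 3, with adjusted p up to 0.18. In the second measurement Il12a was at 1.06 (adjusted p = 0.063). Il12a was the only called gene among 14 tested genes for FGF23 and phosphate handling, of which 0 were lower. Over all genes tested, 12% were called. Slc20a1, a sodium-dependent phosphate transporter gene, was at 36.3, 41.2 and 36.8 CPM in vehicle and 29.7, 33.2 and 33.9 CPM with labelled LPA (−0.24 ± 0.08, adjusted p = 0.065).

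Genes of mineralization and pyrophosphate handling included 5 rises and 1 fall among 14 tested, with a median of 0.40, and 4 of the rises were retained. These were Enpp3, Enpp1 and Spp1, above, and Mgp, which encodes matrix Gla protein, an inhibitor of calcification. Mgp was at 350, 384 and 348 CPM in vehicle and at 1009, 779 and 845 CPM with labelled LPA, with no overlap (1.28 ± 0.10, adjusted p = 9.6e-09). The fifth, Ank, which encodes a pyrophosphate exporter, rose by 0.51 ± 0.13 (adjusted p = 0.014) but was not called without vehicle replicate 2 or labelled LPA replicate 2 (adjusted p up to 0.13). The fall was Nt5e, the ectonucleotidase that makes adenosine from AMP, from 8.48, 9.31 and 8.08 CPM to 5.13, 5.24 and 4.87 CPM (−0.76 ± 0.12, adjusted p = 0.00014). Tissue-nonspecific alkaline phosphatase, encoded by Alpl, was at 2.39, 1.27 and 2.12 CPM in vehicle and at 2.49, 2.04 and 2.68 CPM with labelled LPA, 2 overlapping groups (0.31 ± 0.25, adjusted p = 0.42).

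Osteocytes and osteoblasts support osteoclasts through RANKL, encoded by Tnfsf11, and restrain them through its decoy receptor osteoprotegerin, encoded by Tnfrsf11b. Tnfsf11 was at 0.50, 0.59 and 0.36 CPM in vehicle and at 3.69, 2.66 and 3.76 CPM with labelled LPA (2.79 ± 0.30, adjusted p = 9.5e-07). Tnfrsf11b went the other way, from 2.28, 1.96 and 1.82 CPM to 0.91, 0.23 and 0.73 CPM (−1.70 ± 0.33, adjusted p = 0.0012). Neither gene had overlapping groups, which the choice of Tnfrsf11b as a named fall required, and both were low throughout. In the second measurement Tnfsf11 rose by 1.71 and Tnfrsf11b was at −2.00 (adjusted p = 0.00038 and 4.4e-05).

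Of 18 tested genes for osteoclast support, 7 were higher and 5 lower, and 11 of these 12 were retained. Over all genes tested, 6.62% were higher and 5.38% lower. Il34, a ligand of the M-CSF receptor, was at 5.56, 5.55 and 5.95 CPM in vehicle and at 22.1, 23.8 and 20.6 CPM with labelled LPA (1.96 ± 0.14, adjusted p = 2.4e-09). Ptges, the inducible prostaglandin E synthase, rose from 62 summed counts to 265 (2.06 ± 0.30, adjusted p = 5.5e-05). Cxcl12 rose by 0.41, Wnt5a by 0.38 and Pth1r, the parathyroid hormone receptor gene, by 1.47. Csf1, the gene for M-CSF itself, rose by 0.59 ± 0.11 (adjusted p = 0.0011), with an r of −0.91 with the replicate axis and 0.08 in the second measurement (adjusted p = 0.71). The falls beside Tnfrsf11b were secreted factors. Il1rn, the interleukin-1 receptor antagonist gene, was at 15.7, 16.5 and 14.7 CPM in vehicle and at 8.77, 7.16 and 8.67 CPM with labelled LPA (−0.93 ± 0.10, adjusted p = 1.2e-06). Ccl2 was at −0.81 ± 0.12 and Il33 at −1.28 ± 0.17 (adjusted p = 3.9e-05 and 1.1e-05), and Ccl7 at −0.50 was lost without vehicle replicate 2 (adjusted p = 0.058).

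**Figure D3:**
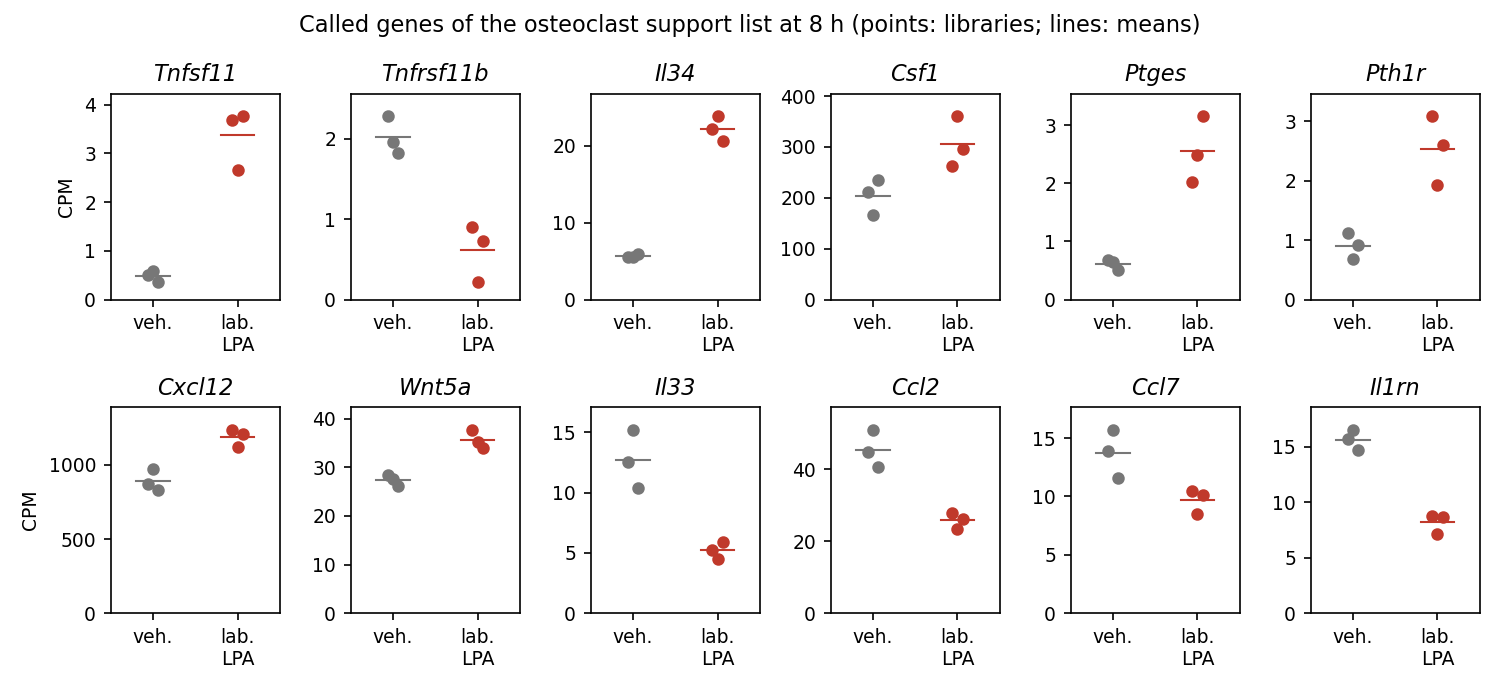
Each panel shows CPM by library, from 0, for 1 called gene of the osteoclast support list, with vehicle (veh.) in grey, labelled LPA (lab. LPA) in red and lines at group means. Tnfsf11 rises from under 0.60 CPM to at least 2.66 CPM while Tnfrsf11b falls from at least 1.82 CPM to under 1 CPM.

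Among 30 tested genes of activin, TGF-beta and BMP signalling, 5 were higher and 8 lower, and 2 and 5 of them were retained. Fst encodes follistatin, which binds and neutralises activins. It had the smallest p of any rise named here, from 11.5, 12.5 and 12 CPM to 86.8, 91.5 and 93.8 CPM (2.92 ± 0.07, adjusted p = 4.9e-17). Inhba, which encodes the activin A subunit, moved in the opposite direction, from 27.7, 35.7 and 27.2 CPM to 14.2, 14.2 and 15.8 CPM (−1.04 ± 0.12, adjusted p = 2.9e-06). Neither gene had overlapping groups, which the choice of Fst as a named rise required. Each moved the same way in the second measurement, by 2.37 and −1.19. Id1 and Id2, classic BMP target genes for inhibitors of differentiation, were at −1.59 ± 0.16 and −0.87 ± 0.08 (adjusted p = 4.3e-07 and 6.4e-08). The other retained rise, the BMP type I receptor gene Acvr1, was at 0.74 ± 0.17 (adjusted p = 0.0053), with an r of −0.91 with the replicate axis.

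Wnt signalling genes numbered 29 tested, 9 higher and 2 lower with a median of 0.30, and 4 and 1 of them were retained. Lgr6, a receptor for R-spondins, went from 0.77, 0.68 and 1.12 CPM to 5.42, 7.79 and 5.34 CPM (2.84 ± 0.34, adjusted p = 3.6e-06). The median correlation of the list with the replicate axis was −0.74, and in the second measurement 5 genes were higher and 7 lower. The other retained rises were Lrp5, Fzd8 and Wnt5a. Fzd8, a frizzled receptor gene, was at 1.23 ± 0.24 with an r of −0.92 and at 0.17 in the second measurement (adjusted p = 0.0014 and 0.69). Wif1, a secreted Wnt inhibitor, was at 1.19 ± 0.30 (adjusted p = 0.012), lost without labelled LPA replicate 2 or replicate 3 (adjusted p up to 0.059). The retained fall was Dkk3, from 188, 203 and 174 CPM to 143, 135 and 138 CPM (−0.44 ± 0.07, adjusted p = 0.00014).

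Feedback genes of the ERK MAP kinase pathway counted 9 higher and 4 lower of 25 tested, with 7 and 4 retained and a median of 0.39, and in the second measurement 7 were higher and 6 lower. Dusp6, the phosphatase that inactivates ERK, was at 21.5, 24.3 and 23.2 CPM in vehicle and at 72.6, 64.5 and 65.2 CPM with labelled LPA (1.55 ± 0.08, adjusted p = 4.5e-12). Dusp1, a phosphatase of stress kinases, and Etv5, an ETS factor downstream of ERK, rose by 1.26 ± 0.12 and 1.07 ± 0.08 (adjusted p = 8e-08 and 1.2e-09). In the second measurement the 3 genes rose by 1.43, 1.34 and 0.95. Dusp5, another ERK phosphatase gene, was at 2.09 ± 0.21 (adjusted p = 4e-07), with an r of −0.93 with the replicate axis and 0.51 in the second measurement (adjusted p = 0.13). Falls included Hbegf, a ligand of the EGF receptor, from 3.75, 3.88 and 4.25 CPM to 1.67, 2.12 and 2.31 CPM (−0.96 ± 0.13, adjusted p = 1.7e-05), and Spry1, a feedback inhibitor, at −0.94 ± 0.24 (adjusted p = 0.013). Egfr itself, the receptor, rose from 91.5, 97.1 and 91.1 CPM to 159, 170 and 177 CPM (0.86 ± 0.07, adjusted p = 2e-08). It was 1 of 6 rises among 23 growth factor and steroid hormone receptors, of which 3 were retained and 0 fell. That receptor list had a median correlation of −0.61 with the replicate axis, and 3 higher and 1 lower in the second measurement.

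Immediate early genes, which cells switch on within minutes of a stimulus, were higher in 9 and lower in 4 of 28, and 5 and 3 were retained. The list had a median correlation of −0.84 with the replicate axis, and in the second measurement 1 gene was higher and 7 lower. Jun was at 15.9, 9.28 and 20.2 CPM in vehicle, with replicate 2 lowest, and at 51.3, 76.1 and 55.4 CPM with labelled LPA. Its log2 fold change was 2.01 ± 0.23 and its r with the axis −0.96, and the second measurement gave 0.65 (adjusted p = 1.9e-06 and 0.071). Arc, an activity-regulated gene, was at 1.36 ± 0.17 with an r of −0.94 and at −0.35 in the second measurement (adjusted p = 8e-06 and 0.21). Egr2, a zinc finger factor gene, fell from 15.5, 14 and 15 CPM to 7.89, 6.37 and 6.39 CPM (−1.11 ± 0.11, adjusted p = 1.7e-07), with an r of −0.09 and −1.39 in the second measurement (adjusted p = 4.3e-09).

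The NF-kB list with its chemokines had 4 higher and 7 lower genes of 28 tested, with 4 and 5 retained. Regulators of the pathway went both ways. Nfkbiz, a nuclear modulator, rose from 21.3, 19.0 and 20.4 CPM to 32.4, 37.4 and 38.2 CPM (0.83 ± 0.08, adjusted p = 1.5e-07), and Nfkbia, for the inhibitor I-kappa-B alpha, rose by 0.54 ± 0.09 (adjusted p = 0.00019). Tnfaip3, for the ubiquitin editor A20, was at −0.72 ± 0.10 (adjusted p = 1.5e-05), and the chemokine gene Cxcl1 at −0.74 ± 0.11 (adjusted p = 5.2e-05). Cytokine and receptor genes of the families of IL-6 and IL-12 had 4 higher and 1 lower of 20 tested. Clcf1, a ligand of the CNTF receptor, was the 1 retained rise, at 1.16 ± 0.16 with an r of −0.96 and 0.54 in the second measurement (adjusted p = 2.5e-05 and 0.035). Genes of the interferon response and antigen presentation were lower in 7 and higher in 0 of 25, with 4 retained and a median of −0.26. That list had a median correlation of 0.61 with the replicate axis, and 1 higher and 1 lower in the second measurement. Ifit3, an interferon-induced gene, was at −0.83 ± 0.12 (adjusted p = 5.2e-05) and at −0.10 in the second measurement (adjusted p = 0.65).

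Genes for LPA receptors and LPA metabolism were higher in 3 and lower in 3 of 19 tested, with 3 and 2 retained. Lpar1, an LPA receptor gene, was at 49.3, 53.1 and 44.0 CPM in vehicle and at 34.5, 32.8 and 33.1 CPM with labelled LPA, with no overlap (−0.54 ± 0.09, adjusted p = 0.00016). Enpp2, which encodes autotaxin, the enzyme that makes LPA, was at 30.6, 38.4 and 30.7 CPM in vehicle and at 25.7, 20.6 and 21.4 CPM with labelled LPA (−0.56 ± 0.09, adjusted p = 0.00028). Plpp3, a phosphatase that degrades LPA at the cell surface, rose by 1.14 ± 0.10 (adjusted p = 3.9e-08). The other retained rises were the acyltransferase genes Agpat3 and Agpat1, which turn LPA into phosphatidic acid. Agpat1 was at 1.07 with an r of −0.96 with the replicate axis and −0.01 in the second measurement (adjusted p = 0.0029 and 0.98).

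Insulin-like growth factor genes were higher in 5 and lower in 1 of 14, with 3 rises retained and a median correlation with the replicate axis of −0.84, and 2 were higher and 1 lower in the second measurement. Igfbp4 and Igfbp5, for binding proteins, rose by 1.85 ± 0.18 and 1.46 ± 0.21 (adjusted p = 2.5e-07 and 3.7e-05) and by 1.26 and 1.04 in the second measurement. Irs2, an insulin receptor substrate, was at 1.42 ± 0.25 with an r of −0.96 and at 0.08 in the second measurement (adjusted p = 0.00034 and 0.86). Semaphorins, plexins and ephrin genes, which guide cells and axons, were higher in 9 and lower in 2 of 32, with 7 and 2 retained. The list had a median correlation of −0.82 with the replicate axis, and in the second measurement 5 were higher and 6 lower, with a median of −0.26. Epha4, an ephrin receptor, rose from 5.29, 4.72 and 4.33 CPM to 13.3, 15.5 and 14.7 CPM (1.60 ± 0.15, adjusted p = 7.7e-08), with an r of −0.01. Sema3e, a secreted guidance cue, rose from 24.1, 25.1 and 24.5 CPM to 39.0, 39.1 and 40.7 CPM (0.69 ± 0.08, adjusted p = 4.5e-06). Epha3, a related receptor, was at −0.74 ± 0.09 (adjusted p = 2.5e-06). In the second measurement these 3 were at 1.10, 1.10 and −0.56, each past the threshold.

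Counts of called cell cycle genes are set against 6.62% higher and 5.38% lower over all genes tested. Of 28 tested genes for DNA replication 0 were higher and 1 lower, and of 24 for mitosis 0 were higher and 3 lower, none of which was retained. Their median correlations with the replicate axis were 0.78 and 0.69. Cyclin-dependent kinase inhibitors and p53 targets were higher in 4 and lower in 4 of 19. Gadd45a, a growth arrest gene, rose from 16.9, 16.6 and 16.2 CPM to 47.6, 44.1 and 43.7 CPM (1.45 ± 0.08, adjusted p = 1.4e-11). Its relative Gadd45g went from 13.9, 13.6 and 16.0 CPM to 5.69, 5.24 and 6.24 CPM (−1.34 ± 0.13, adjusted p = 2.7e-07). Cdkn2b and Cdkn1b, for the inhibitors p15 and p27, rose by 0.76 and 0.35 (adjusted p = 8e-08 and 0.00032). The groups did not overlap for Gadd45a or Gadd45g, and for Gadd45g, a named fall, the choice required it.

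Among metabolic lists, glycolysis and hypoxia genes were lower in 8 and higher in 3 of 28 with a median of −0.29, and 3 and 3 were retained. The list had a median correlation of 0.46 with the replicate axis, and in the second measurement 2 were higher and 2 lower. Vegfa, the angiogenic growth factor gene, rose by 1.61 ± 0.18 with an r of −0.96 and by 0.78 in the second measurement (adjusted p = 1.4e-06 and 0.0058). Pfkfb3, a regulator of glycolytic flux, rose by 0.95 ± 0.09 (adjusted p = 1.6e-07), and Hk2, for hexokinase 2, was at −0.71 ± 0.12 (adjusted p = 0.00037). Cholesterol and fatty acid synthesis genes were lower in 10 and higher in 3 of 28, with 4 and 3 retained, and in the second measurement 4 were lower and 3 higher. That list had a median correlation of 0.57 with the axis. Insig2, a sterol sensor gene, rose from 48.8, 56.9 and 47.8 CPM to 107, 87.0 and 96.1 CPM (0.92 ± 0.09, adjusted p = 2.8e-07). Its relative Insig1 was at −0.55 ± 0.07, and Cyp51, for a sterol demethylase, at −0.72 ± 0.07 (adjusted p = 6.3e-06 and 3.9e-07). The 2 Insig genes kept opposite signs in the second measurement, at 1.16 and −0.26, both past the threshold.

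**Figure D4:**
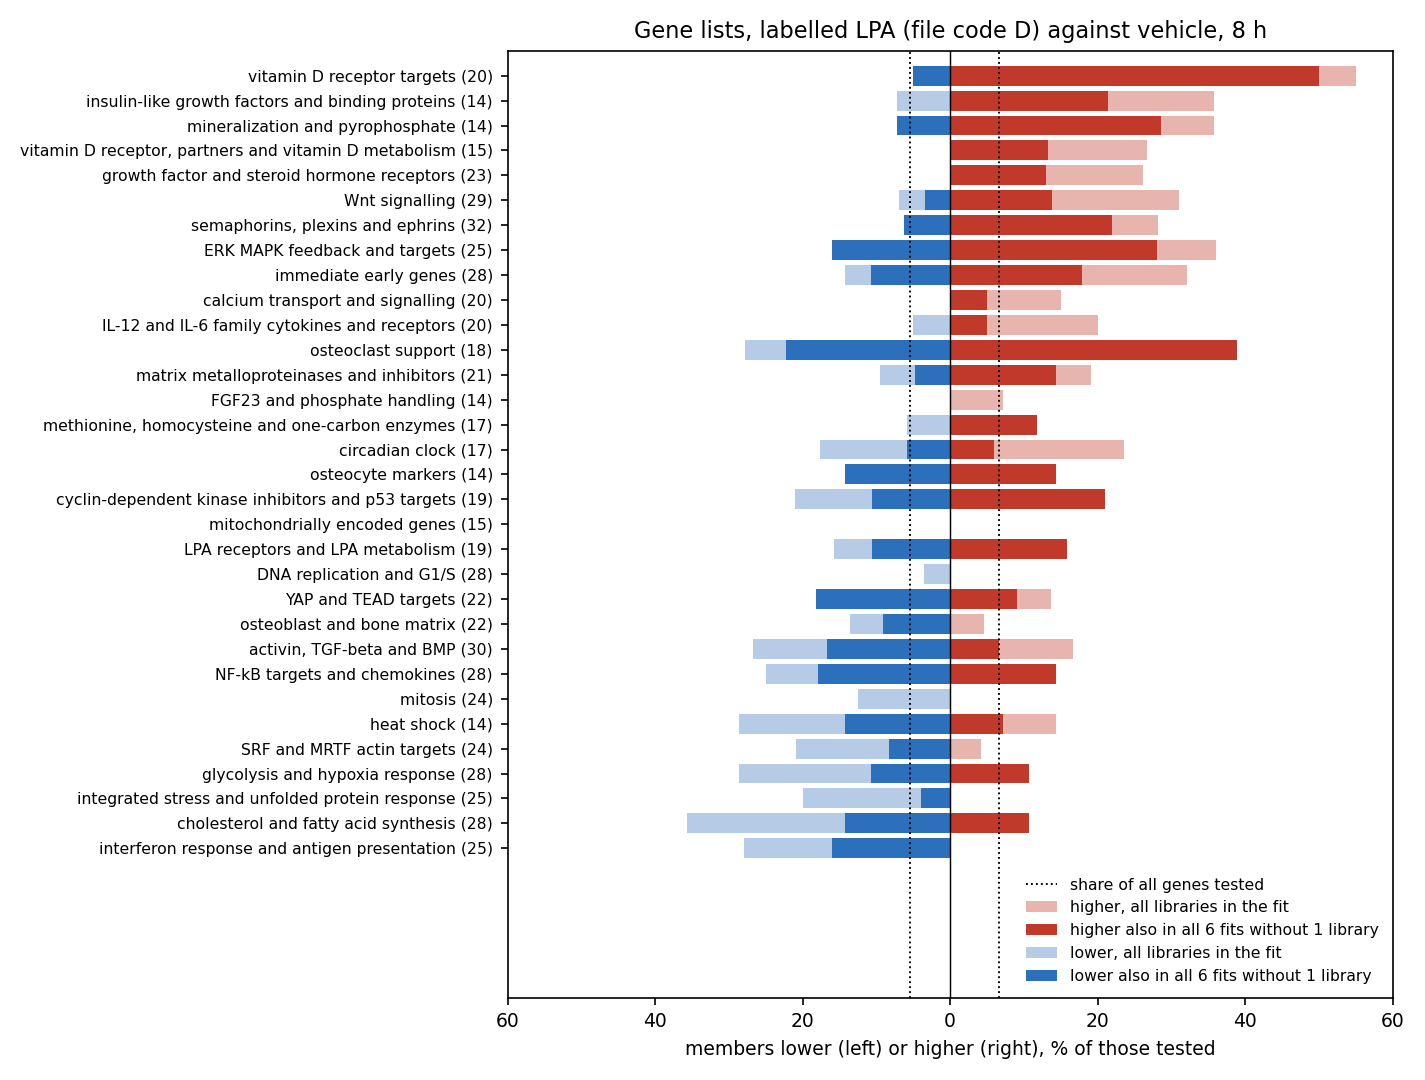
For each gene list with at least 10 tested members (number in brackets), bars give the percent of tested members higher (right) and lower (left) with labelled LPA (file code D) against vehicle at 8 h. Dark parts are members retained in all 6 fits without 1 library, dotted lines are the shares over all genes (6.62% higher and 5.38% lower), and the VDR target list stands at the top.

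The cell type was checked against its markers. Sost and Mepe, defining genes of mature osteocytes, were at 0.039 and 0.0073 TPM in vehicle and at 0.012 and 0 TPM with labelled LPA, at or near 0. Dmp1, a matrix protein of osteocytes, was low at 0.86 and 1.07 TPM. Pdpn, a marker of early osteocytes, was at 41.0 and 40.2 TPM. Of 14 tested osteocyte markers 2 rose and 2 fell: Fbln7 (0.64 ± 0.07) and Gja1 (0.71 ± 0.09), for connexin 43, rose, while Cd44 (−0.68 ± 0.07) and Tnfrsf11b fell (adjusted p = 8.1e-07, 5.7e-06, 1.2e-06 and 0.0012). Of 22 tested osteoblast and matrix genes 1 was higher and 3 lower. Col1a1, the main collagen of bone, was at 3750, 1650 and 4054 CPM in vehicle and at 4465, 5945 and 5021 CPM with labelled LPA (0.71 ± 0.25, adjusted p = 0.067), with an r of −0.95 with the replicate axis. Markers of adipocytes (3 tested), chondrocytes (5), endothelium (4) and skeletal muscle (4) had 0 called members, and their defining genes Adipoq, Acan, Kdr and Myod1 held at most 7 summed counts in a group. Of 6 tested macrophage and blood markers 1 rose, Fcer1g, an Fc receptor subunit gene, from 0.62, 0.84 and 0.81 CPM to 2.79, 3.79 and 3.56 CPM (2.15 ± 0.24, adjusted p = 1.4e-06). Over that list the summed level was 29.4 to 32.7 TPM in vehicle and 37.0 to 42.2 TPM with labelled LPA, and Ptprc, the pan-leukocyte gene, was at 0.13 and 0.085 TPM. In bulk RNA, a change in the number of cells of a type and a change in RNA per cell cannot be told apart.

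With the other agent present, both agents against labelled 1,25D called 1507 genes (9.18%), 943 higher (5.74%) and 564 lower (3.43%), with no library in common with the comparison above. With no filter on low counts the balance turned, to 880 higher and 1506 lower. Of the 1088 rises with labelled LPA alone, 427 (39.2%) were among those 943 (45.3% of them). Of the 568 retained rises, 344 (60.6%) were. Of the 883 falls, 209 (23.7%) were among the 564 (37.1% of them), and of the 334 retained falls 156 (46.7%). Spp1 started from a higher base there and was at 764, 714 and 718 CPM in the libraries labelled 1,25D and at 3756, 4442 and 3403 CPM with both agents, a log2 difference of 2.40 ± 0.10 (adjusted p = 1.2e-13).

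The difference between these effects, with and without the other agent, was tested directly. It called 1262 genes (7.68%), 667 higher (4.06%) and 595 lower (3.62%), but 48 without vehicle replicate 2, 32 without labelled LPA replicate 2 and 30 without replicate 2 of the libraries given both agents. Its balance was not stable: at least 2-fold differences were 15 higher and 271 lower, the replicate block gave 565 higher and 782 lower, and no filter on low counts gave 772 and 2322. Across genes this difference had a rank correlation of 0.68 with the correlation to the replicate axis. For 12 of the 15 largest rises the difference was not past the threshold, which does not show that the effects were alike. Cyp24a1 had a difference of −0.14 ± 1.89 (adjusted p = 0.97), too wide to compare. Il33 was lower with labelled LPA alone, at −1.28, and at −0.01 on top of the other agent, a difference of 1.28 ± 0.23 (adjusted p = 0.01). Vdr differed by 0.61 ± 0.11 (adjusted p = 0.01). Elfn1 had a smaller rise with the other agent, by −2.59 ± 0.58 (adjusted p = 0.03).

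At 2 h, the libraries with the same label and file code had 98 genes higher (0.597%) and 31 lower (0.189%) against vehicle at 2 h. Of the 98, 86 (87.8%) were higher at 8 h as well, 7.9% of the 1088, and of the 31, 11 (35.5%) were lower at 8 h, 1.25% of the 883. The 2 times share no library. Cyp24a1 had 10 summed counts against 1 at 2 h, a ratio of 10.3 (1.47 to 449). Klhl33 was already at 24.7, 23.1 and 24.5 CPM at 2 h against 4.4, 4.84 and 4.57 CPM in vehicle, a rise of 2.39 ± 0.12 (adjusted p = 7e-11), and its rise was larger at 8 h by 1.5 ± 0.17 (adjusted p = 8.2e-06). Enpp3 was at 9.60, 10.2 and 10.9 CPM at 2 h against 4.80, 6.57 and 5.59 CPM (0.85 ± 0.11, adjusted p = 0.00014), and the difference between the times was 3.24 ± 0.16 (adjusted p = 3.6e-11). Vdr was at 236, 229 and 232 CPM in vehicle at 2 h and at 257, 212 and 249 CPM with labelled LPA, 2 overlapping groups, and the difference between the times was 0.98 ± 0.11 (adjusted p = 6.4e-06). Gpr39 was at 0.02 ± 0.15 at 2 h and lower by 1.56 at 8 h relative to that (adjusted p = 0.96 and 0.00014). Of the 15 largest rises at 8 h, 9 were called at 2 h, and of the 15 largest falls 0 were. The difference between the times called 1110 genes (6.76%) over all, 431 without vehicle replicate 2 at 8 h and 3368 without vehicle replicate 3 at 8 h.

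**Figure D5:**
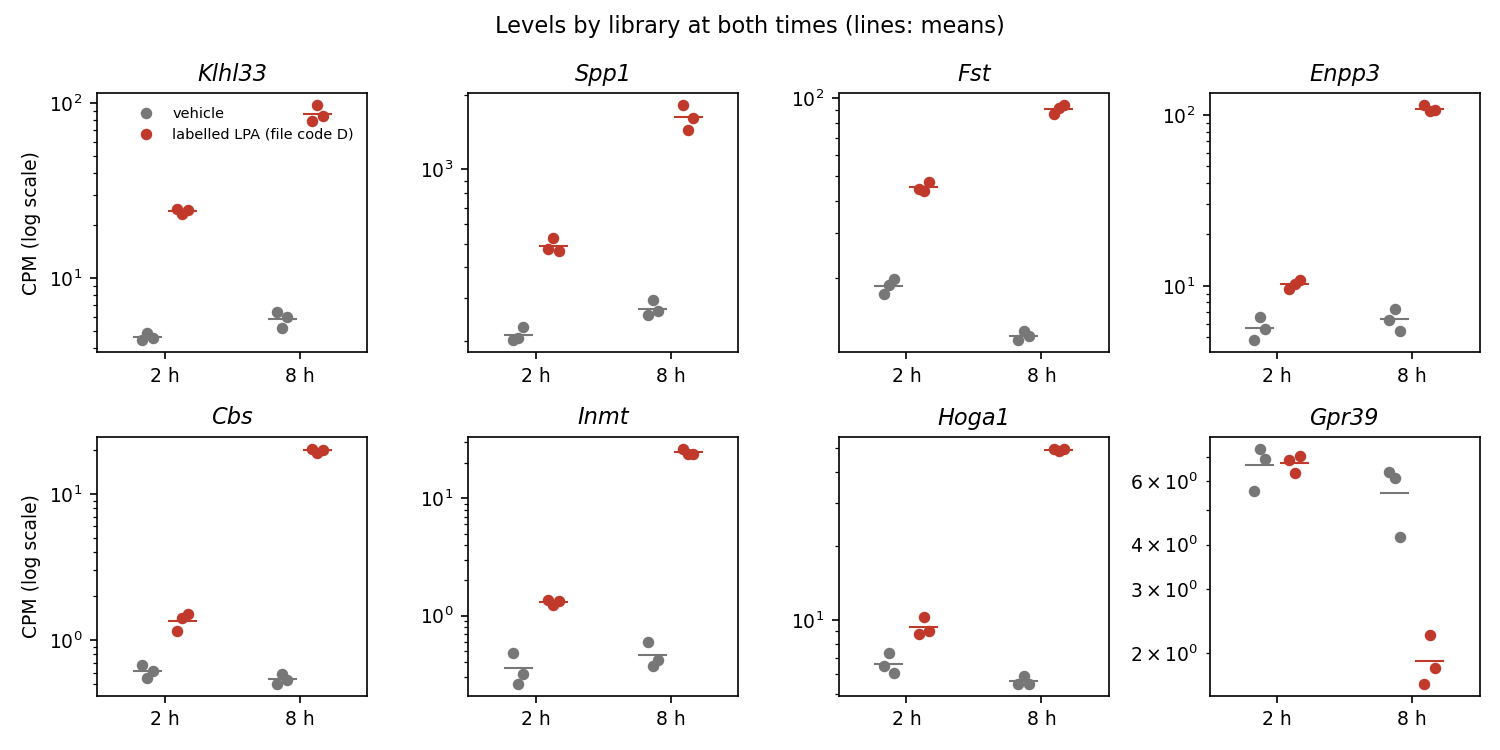
CPM by library on log axes at 2 h and 8 h for 8 genes, with vehicle in grey, labelled LPA (file code D) in red and lines at group means. The groups of Klhl33, Spp1 and Fst are already well apart at 2 h, the gaps of Enpp3, Cbs, Inmt and Hoga1 are far wider at 8 h, and Gpr39 lies below vehicle at 8 h.

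The 2 single agents at 8 h were set against each other without the vehicle libraries they share. Labelled LPA (file code D) was higher than labelled 1,25D (file code L) in 1528 genes (9.3%) and lower in 1358 (8.27%). Median-of-ratios scaling turned that balance, to 1415 higher and 1466 lower, and so did leaving out labelled LPA replicate 1 (1175 and 1455) and DESeq2 (1500 and 1556). Where the 2 groups averaged 1 CPM or more, which leaves out Cyp24a1, the largest differences in named gene models were Mrgprd (9.32), Inmt (5.91), Cbs (5.60), Krt17 (5.15) and Elfn1 (4.86) on the higher side. On the lower side were Tnfrsf11b (−3.50), Il1rl1 (−3.41), Ttll11 (−2.93), Hdac9 (−2.91) and Gpr39 (−2.90). Tnfrsf11b was at 7, 6.57 and 7.49 CPM in the libraries labelled 1,25D, above every vehicle library, and at 0.91, 0.23 and 0.73 CPM in those labelled LPA, below every vehicle library. Cyp24a1 was higher with labelled LPA by 6.17 ± 0.82 and Vdr by 1.81 ± 0.08 (adjusted p = 7.3e-06 and 2.2e-13).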

How the data were processed

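RNA of Ocy454 cells was sequenced in 24 libraries, 3 in each of 8 groups of treatment and time. The authors deposited estimated counts and TPM per Ensembl transcript, per the file headers. The sources used here name no tool that made them. The submitters' processing notes name the build mm39. Estimated counts were summed per gene through GENCODE M21 (99.48 to 99.6% of counts matched in the 6 libraries), used for gene names only, and rounded, in Python 3.11.15.

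The test was edgeR 4.0.16 (R 4.3.3), quasi-likelihood F test (robust), TMM scaling, filterByExpr minimum count 10, with all 24 libraries in 1 fit and Benjamini-Hochberg adjustment over 16424 genes. CPM uses TMM-scaled totals. The script was tested on simulated data. DESeq2 1.42.0 and other settings were alternatives. No pair of replicates within a group was alike within counting noise (chi-square over degrees of freedom 6.58 to 119 in all 8 groups). The range was 25.2 to 119 for vehicle at 8 h and 16.2 to 38.2 for labelled LPA at 8 h. The pooled spread is not that of these groups alone.

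Groups came from sample titles. Named genes were the 15 largest rises and falls with a mean of at least 1 CPM and no overlap, the 5 largest each way for each difference, Cyp24a1, Vdr, Fgf23, Il12a, and members of 37 lists. The members and lists were chosen with earlier results of these data known. Kcne4 and Ephb2 were named after their promoters were searched. Some genes that met these rules are not reported here.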

Additional observations from a re-analysis of the deposited data

Results flagged for a closer look

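Genes whose response to the libraries labelled LPA (file code D) differed between 8 h and 2 h, by a test of the difference itself, were singled out by size. The response was higher at 8 h for Bhmt (5.33 on the log2 scale), Elfn1 (5.08), Cbs (4.05), Inmt (3.86) and Enpp3 (3.24). It was lower at 8 h for Gpr39 (−1.56), Hey2 (−1.54), Ankrd37 (−1.54), Ch25h (−1.53) and Lrrc17 (−1.51). Ch25h, which encodes cholesterol 25-hydroxylase, was at 1.15, 1.46 and 1.82 CPM in vehicle at 8 h and at 0.53, 0.43 and 0.47 CPM with labelled LPA. Ankrd37 had a call at 8 h that held in 2 of the 6 fits without 1 library.

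In the fit of all 24 libraries, the response also differed with and without the other agent at 8 h. It was higher with the other agent for Krtap1-5 (1.53), Sgpp2 (1.38), Il33 (1.28), F13a1 (1.25) and Ptgfr (1.02). It was lower for Elfn1 (−2.59), Flrt1 (−2.28), Sox9 (−1.92), Wscd2 (−1.74) and Arc (−1.71). Ptgfr, the prostaglandin F receptor gene, was at −0.87 with labelled LPA alone and at 0.15 on top of the other agent. Wscd2 and Arc had correlations of −0.88 and −0.94 with the replicate axis, whose part in these differences was not tested. Over all genes this difference called 1262 in that fit, but 13 with only the groups compared. Leaving out both-agents replicate 2 gave 30, and leaving out both-agents replicate 3 gave 4203. Whether the genes named for this difference kept their calls in such fits is not reported here.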

How the results depend on the processing

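Counts of genes past an adjusted p of 0.05 moved by more than 1.5 times under some settings, and the cause was not tested. With no filter on low counts they were 3006 for labelled LPA against vehicle at 8 h (main 1971; 2250 higher), 2386 for both agents against labelled 1,25D, 3094 for the difference with and without the other agent, 373 at 2 h and 3065 for the difference between times. With only the groups compared they were 565, 807, 13 and, for the difference between times, 443. Between the single agents that setting gave 3080, against 2886 in the main fit. DESeq2 called 3557 for the difference with and without the other agent, 291 at 2 h and 2348 for the difference between times. Without vehicle replicate 2 and both-agents replicate 2 at 8 h, chosen after seeing the data, the difference with and without the other agent called 25 and the 2 h comparison 343. At 2 h the balance turned there (158 higher and 185 lower) and with no filter (185 and 188). Leaving out 1 library in turn gave 1051 to 3302 genes for labelled LPA against vehicle at 8 h, 886 to 1936 for both agents against labelled 1,25D, 30 to 4203 for the difference with and without the other agent, 69 to 96 at 2 h, 378 to 3368 for the difference between times and 2065 to 2630 between the single agents.

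The replicate block called 1897 genes. The numbers do not pair the libraries, since same-numbered libraries had correlations of −0.047, −0.206 and −0.030 in their deviations from group means. Of 117 named genes that were called, 1 (Ankrd37, adjusted p = 0.061) lost the call with the block, 29 with only the groups compared and 0 with median-of-ratios scaling. DESeq2 gave no adjusted p for Cyp24a1 or Mrgprd. None of the called genes changed sign in any setting. F13a1, not called, ran from −0.11 to 0.24 when 1 library was left out. At about 33 M counts a library, genes near the 3-count limit in both groups, Fgf23 among them, cannot be compared.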

Other observations

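Hlf, a clock output transcription factor gene, rose from 0.92, 1.43 and 1.2 CPM to 4.46, 4.98 and 4.67 CPM with labelled LPA at 8 h (1.99 ± 0.22, adjusted p = 1.2e-06), and by 1.2 in the second measurement (adjusted p = 0.0014). Of 17 tested circadian clock genes, 4 were higher and 3 lower, and Hlf was the 1 retained rise, and in the second measurement 1 was higher and 4 lower. Per2 and Nr1d1, core repressors of the clock, were at 0.76 and 0.85 (adjusted p = 0.028 and 0.02), each with an r of −0.92 with the replicate axis and held in 4 of 6 fits. Matrix metalloproteinases and their inhibitors were higher in 4 and lower in 2 of 21. Mmp16, a membrane-bound member, rose from 12.4, 15.3 and 13.4 CPM to 19.6, 20.4 and 19.4 CPM (0.53 ± 0.10, adjusted p = 0.00081). Timp3, a matrix-bound inhibitor, was at −0.29 ± 0.07 (adjusted p = 0.0054), and both genes moved the same way in the second measurement, by 0.96 and −0.47.

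Genes of the integrated stress and unfolded protein response were lower in 5 and higher in 0 of 25, of which Xbp1 (−0.59 ± 0.08, adjusted p = 2.1e-05) was retained. That list had a median correlation of 0.58 with the replicate axis, and 2 higher and 0 lower in the second measurement. SRF and MRTF actin targets were lower in 5 and higher in 1 of 24, and 0 and 3 in the second measurement. YAP and TEAD targets were higher in 3 and lower in 4 of 22, with a median correlation of −0.78 with the axis, and in the second measurement 2 were higher and 9 lower. Calcium transport genes were higher in 3, of which 1 was retained, and lower in 0 of 20. Their median correlation with the axis was −0.77, and in the second measurement 1 was higher and 3 lower. Heat shock genes were higher in 2 and lower in 4 of 14, with a median correlation of 0.69 with the axis, and in the second measurement 3 were higher and 0 lower. None of 15 mitochondrially encoded genes was called.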
